A study of Mus musculus with 4 samples.

Results

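Cytosolic ribosomal proteins are the protein subunits of the ribosome that translates nuclear-encoded mRNA. The genes described here were chosen by name: Rps or Rpl followed by a number, with or without a letter or a further digit, plus Rplp0, Rplp1, Rplp2 and Rpsa, and without names ending in -ps, which mark pseudogenes. The rule found 89 of the 54532 genes in the tables, namely 77 core subunits and 12 paralogues or retrocopies. Of the 89 members, 83 were annotated as protein-coding and 6 (Rpl6l, Rpl32l, Rps12l1, Rps3a2, Rps3a3 and Rps4l) as pseudogenes. RNA came from PMN-MDSC of newborn C57BL/6 mice, cells that resemble neutrophils and are known for restraining T cells (the name stands for polymorphonuclear myeloid-derived suppressor cells), purified from the spleen. The cells of 2 libraries had been treated for 5 days with NECA, an agonist of adenosine receptors, and those of the other 2 with the vehicle DMSO. Separate animals or cultures are not named for the replicates, so p-values measure only the spread between these 4 samples and that spread may be technical.

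The ribosome is built from a small subunit, which reads the mRNA, and a large subunit, which forms the peptide bond. Its protein genes are transcribed at a high rate in growing cells, and their mRNAs typically begin with a C followed by further pyrimidines, the 5′ terminal oligopyrimidine (TOP) tract, through which mTOR controls their translation. Mature neutrophils are known for holding few ribosomes and little RNA, and ribosomal protein transcripts are lower in them than in their dividing precursors.

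The libraries held 18712625 and 15864120 counts with NECA, against 18583918 and 18492030 with DMSO. Of 14 neutrophil markers, such as Mmp9 and Lcn2, all were detected in every library, with a summed level of 141015 and 141829 CPM (counts scaled to library sizes adjusted by TMM) with NECA and 126637 and 132274 CPM with DMSO. After a filter on low counts, 13083 genes were tested with edgeR's quasi-likelihood test, with Benjamini-Hochberg adjustment across the whole set. At an adjusted p below 0.05, 46 of them were called higher and 128 lower with NECA, and with library size alone in place of TMM 21 were called higher and 217 lower. Because the samples were bulk RNA, fewer cells of a type and less RNA per cell cannot be told apart.

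The tract at the start of these transcripts was examined in RefSeq promoters of GRCm38.p6, which held 64 of the 89 members with 76 start sites. Around each start, 15 bases before it and 15 bases from it onward were searched on the sense strand for a run of pyrimidines that begins with C. The following windows are shown because they belong to members with contrasting values described below, and capitals mark the longest such run.
Rpl12: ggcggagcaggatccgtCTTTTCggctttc
Rpl15: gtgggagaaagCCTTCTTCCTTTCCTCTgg
Rpl27a: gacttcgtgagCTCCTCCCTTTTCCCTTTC
Rps9: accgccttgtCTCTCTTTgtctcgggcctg
Rpl35a: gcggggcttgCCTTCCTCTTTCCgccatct
Rps27: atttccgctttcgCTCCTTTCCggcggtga
Rplp0: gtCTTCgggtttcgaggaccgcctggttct
Rpl5: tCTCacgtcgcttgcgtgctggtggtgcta
Rpl41: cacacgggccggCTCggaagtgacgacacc
The windows lie at chr2:32961697-32961726 (plus strand) for Rpl12, chr14:18270972-18271001 (minus) for Rpl15 and chr7:109519180-109519209 (plus) for Rpl27a. Those of Rps9, Rpl35a and Rps27 lie at chr7:3704026-3704055 (plus), chr16:33056467-33056496 (plus) and chr3:90213634-90213663 (minus). Those of Rplp0, Rpl5 and Rpl41 lie at chr5:115559452-115559481 (plus), chr5:107900513-107900542 (plus) and chr10:128549154-128549183 (minus).

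A run of at least 6 pyrimidines beginning with C was present in 38 of the 76 windows of members (50%), against 22.5% of 32851 windows of all genes. The longest runs shown, in Rpl27a and Rpl15, measured 19 and 17 bases, and those in Rplp0, Rpl5 and Rpl41 were under the minimum, at 4, 3 and 3 bases. The hexamer CTTTCC on the sense strand stood in 13.2% of member windows and 1.4% of all windows, and on the antisense strand in 0.0% and 1.3%. Over 300 bases of promoter and both strands, the ETS-type heptamer CCGGAAG stood in 35.5% of member promoters and 8.9% of all, the YY1-type octamer AAGATGGC in 10.5% and 2.7%, and TATAAA in 10.5% and 13.6%. These matches describe letters at annotated starts, and the starts used in these cells were not measured.

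Ribosomal protein genes were, by small amounts, mostly lower in NECA libraries, and 1 of them passed the test. Together the 89 members held 0.795% (95% Wilson interval 0.791 to 0.799) and 0.741% (0.737 to 0.745) of counts with NECA, against 0.839% (0.835 to 0.843) and 0.936% (0.931 to 0.940) with DMSO. Both NECA shares lay below both DMSO shares, by 0.119 percentage points between the group means, with a pooled SD within groups of 0.0555 points. Without DMSO replicate 2 the difference of NECA minus DMSO was -0.071 points, against -0.119 with all libraries. With 2 libraries against 2, an exact permutation test of such a value cannot go below p = 0.333 (two-sided), so none is given. The intervals cover counting error only, since PCR copies are not independent molecules. On the TMM scale the groups overlapped, at 8171 and 7593 summed CPM with NECA and 8146 and 9189 CPM with DMSO.

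Of the 89 members, 84 passed the filter on low counts and were tested. None of the 84 was called higher with NECA, where 0.352% of all tested genes were, and 1 (1.19%), Rpl3, was called lower, where 0.978% of all tested genes were, so the share of called members was near that of all genes. These counts rested on single libraries: without DMSO replicate 2 none was lower and Rpl35a was higher, where 0.69% of all genes tested were lower and 0.385% higher. Without NECA replicate 1, 18 members were lower and 2 higher, where 4.01% of all genes tested were lower and 1.65% higher. At an unadjusted p below 0.05, 31 members (36.9%) were lower and 1 (1.19%), Rpl35a, was higher, against 8.88% and 6.81% of all tested genes. The median log2 fold change of NECA over DMSO was -0.16 over the tested members, with quartiles of -0.24 and -0.06, and -0.01 over all tested genes. It was below 0 for 74 of 84 members and for 51.4% of all tested genes. Of the 84, 13 members lay at or below -0.3 and 61 between -0.3 and 0, and for 26 the fold change was smaller than its own standard error (SE).

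Both NECA values lay below both DMSO values for 42 of the 84 tested members, against 24.3% of all tested genes. Both lay above for 2 members, Rps9 and Rpl35a, against 22.4% of all tested genes. At a mean level of 20 CPM or more, 67 of 73 members and 36.8% of 5656 genes had a fold change below 0, with medians of -0.16 for members and 0.04 for all. Of these 73 members, 36 had both NECA values below both DMSO values, against 14.5% of all genes, and 2 had both above, against 34.1%. At that level 30 members were lower at an unadjusted p below 0.05 and 1 was higher, against 4.99% and 13.3% of all genes. By adjusted p, 1 member was called lower, against 0.707% of all genes, and none higher, against 0.76%.

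**Figure D1:**
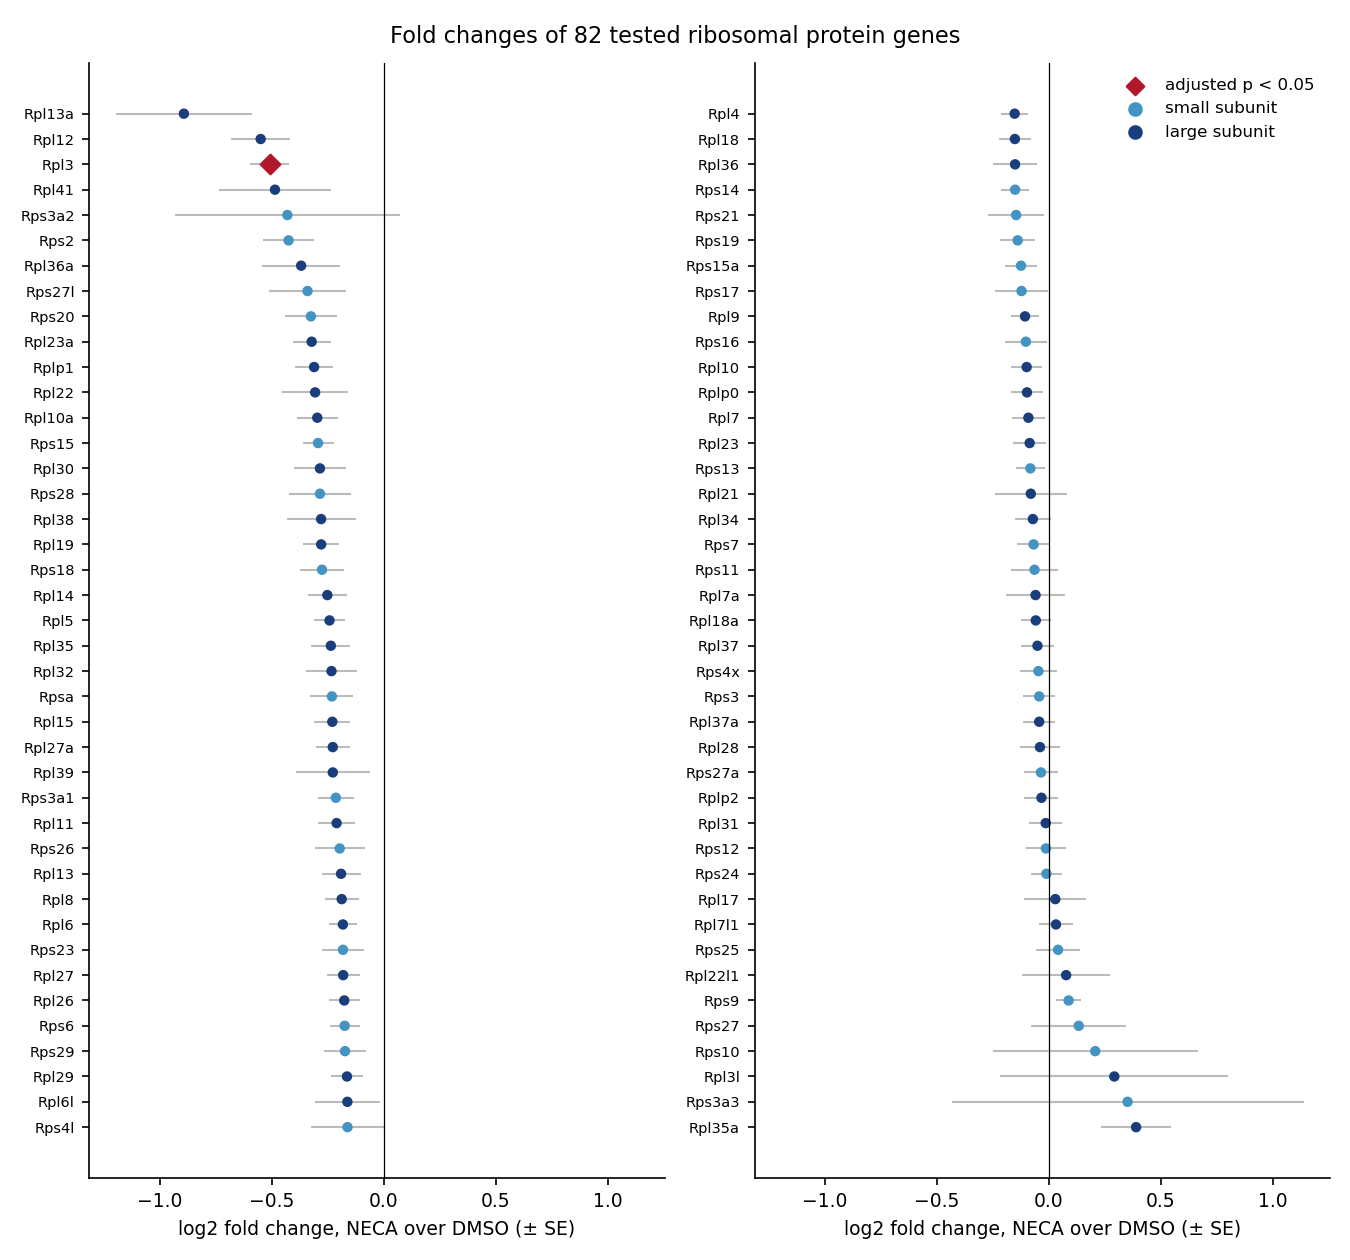
Log2 fold change (NECA over DMSO, x axis) of 82 of the tested ribosomal protein genes with the standard error as a bar, sorted from the lowest in the left panel to the highest in the right panel, with small and large subunit genes in lighter and darker blue. Most points lie a little left of 0, and the red diamond marks Rpl3, the 1 member with an adjusted p below 0.05.

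The libraries of a group did not sit together in the same order for all members. DMSO replicate 2 was the highest library for 68 of the 84 tested members and NECA replicate 2 the lowest for 56. The commonest order from high to low, DMSO replicate 2, DMSO replicate 1, NECA replicate 1, NECA replicate 2, was that of 29 members. In 18 others NECA replicate 1 lay above DMSO replicate 1. The median of the members' log2 CPM, each centred on its own mean over the 4 libraries, was -0.03 and -0.12 in NECA libraries and 0.00 and 0.15 in DMSO libraries. Without DMSO replicate 2 the median fold change was -0.10 and 60 of 85 tested members lay below 0.

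**Figure D2:**
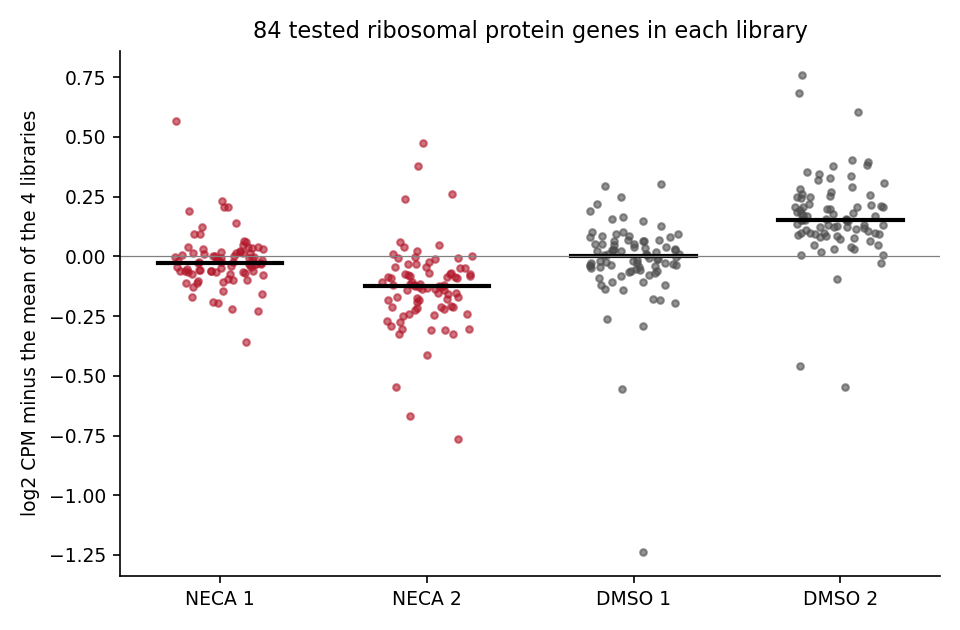
Log2 CPM of each of the 84 tested members minus that member's mean over the 4 libraries (y axis), by library, with 1 point per gene and the median as a black bar. The medians lie at -0.03 and -0.12 in the NECA libraries and at 0.00 and 0.15 in the DMSO libraries, with DMSO replicate 2 highest.

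Rpl3, a large subunit protein close to the peptidyl transferase centre (gene ENSMUSG00000060036, chr15:80077791-80091868 in GENCODE M21 on GRCm38), measured 76.2 and 70.3 CPM with NECA, against 95.4 and 113 CPM with DMSO. The groups did not overlap, and the means were 73.2 ± 4.15 CPM with NECA and 104 ± 12.6 CPM with DMSO (SD, n = 2 each). Rpl3 fell with NECA by 0.51 on the log2 scale (SE 0.09, edgeR's quasi-likelihood test, adjusted p = 0.0167). Without DMSO replicate 2 the fall was 0.39 on the log2 scale and the call was lost (edgeR, adjusted p = 0.0612).

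The large and the small subunit had medians close to each other, a difference that was not tested. Of 53 large subunit members, 49 were tested, with 1 called lower, 44 below 0 and a median of -0.18. Of 36 small subunit members, 35 were tested, with none called, 30 below 0 and a median of -0.15. Their summed levels were 4355 and 4026 CPM with NECA and 4405 and 4948 CPM with DMSO for the large subunit, and 3816 and 3567 CPM with NECA and 3741 and 4241 CPM with DMSO for the small subunit. For the large subunit both NECA sums lay below both DMSO sums, and for the small subunit NECA replicate 1 lay above DMSO replicate 1.

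The ribosomal stalk, which recruits and activates the GTPase factors of translation, is formed by Rplp0, Rplp1 and Rplp2 on a base that includes Rpl12. Rpl12 (chr2:32961559-32965345) had 44.4 and 31.0 CPM with NECA, against 53.9 and 56.8 CPM with DMSO. Its groups did not overlap, and the log2 fold change of -0.55 (SE 0.13) missed the threshold with an adjusted p of 0.0702 (edgeR). Rplp1 (chr9:61913284-61914542) measured 94.5 and 83.2 CPM with NECA and 103 and 117 CPM with DMSO, again without overlap and with a log2 fold change of -0.31. Rplp0, the stalk protein that binds the ribosomal RNA (chr5:115559467-115563727), had 367 and 335 CPM with NECA and 349 and 402 CPM with DMSO, and its groups overlapped. Rplp2 measured 88.8 and 82.3 CPM with NECA and 83.7 and 91.5 CPM with DMSO and also overlapped. None of the 4 stalk genes was called, and their fold changes ran from -0.55 to -0.03 with a median of -0.20.

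Rpl5 and Rpl11 travel with the 5S ribosomal RNA and, like Rpl23, are known to bind and inhibit MDM2, the ubiquitin ligase of p53, when ribosome assembly is disturbed. Rpl5 (chr5:107900502-107909005) had 109 and 101 CPM with NECA and 126 and 122 CPM with DMSO. Rpl11 (chr4:136028265-136053428) had 115 and 107 CPM with NECA and 119 and 139 CPM with DMSO. Rpl23 had 72.7 and 68.4 CPM with NECA and 77.0 and 72.9 CPM with DMSO. In all 3 genes both NECA values lay below both DMSO values, as in 50% of all tested members and 24.3% of all tested genes. Their log2 fold changes were -0.24, -0.21 and -0.09, with edgeR adjusted p-values of 0.103, 0.227 and 0.650. Among 12 tested ribosome stress sensors and regulators of p53, none was called and the median was -0.08. Mdm2 itself stood at 144 and 151 CPM with NECA and 135 and 140 CPM with DMSO, with an edgeR adjusted p of 0.500.

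In human, haploinsufficiency of certain ribosomal protein genes causes Diamond-Blackfan anaemia, a failure of red cell production. A list of 17 such mouse genes was used, which may not be complete and left out Rps27 (log2 fold change 0.13). All 17 were tested, none was called, 15 lay below 0 and the median was -0.17. Rps19, the gene most often mutated in that disease, had 95.2 and 88.6 CPM with NECA and 95.0 and 108 CPM with DMSO, with overlapping groups and a log2 fold change of -0.14 (edgeR adjusted p = 0.428). The exceptions to the downward placement in this list were Rpl35a and Rps10, which had at most 38 counts in any library for Rps10. Rpl35a (chr16:33056453-33060189), a large subunit protein, measured 80.1 and 82.9 CPM with NECA, against 47.8 and 76.7 CPM with DMSO. Both NECA values lay above both DMSO values, but DMSO replicate 1 stood far below the other 3 libraries. The log2 fold change was 0.39 (SE 0.16, edgeR adjusted p = 0.247), and it was 0.09 when DMSO replicate 1 was left out. Leaving out any other library gave a call, at 0.76 without DMSO replicate 2 (edgeR adjusted p = 0.000885), 0.42 without NECA replicate 1 (0.00249) and 0.37 without NECA replicate 2 (0.0240). It was also called with no filter beyond 1 count in any library, at 0.39 (edgeR adjusted p = 0.000212), and with the replicate number as a block, at 0.42 (0.0486). With DESeq2 the adjusted p was 0.815.

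Among small subunit genes the most abundant was Rps9, an early-assembling protein of that subunit (chr7:3703993-3706897). Rps9 had 599 and 582 CPM with NECA and 532 and 580 CPM with DMSO. Both NECA values lay above both DMSO values by a narrow margin, with a log2 fold change of 0.09 (SE 0.05, edgeR adjusted p = 0.485). Rps3a1 (chr3:86137940-86142702) measured 190 and 163 CPM with NECA and 192 and 217 CPM with DMSO, and Rps15 (chr10:80292453-80294114) measured 96.5 and 99.96 CPM with NECA and 115 and 125 CPM with DMSO. Neither overlapped between groups, and their log2 fold changes were -0.21 and -0.29 (edgeR adjusted p = 0.220 and 0.0659). Rps2, a protein at the mRNA entry channel (chr17:24718116-24721929), had 106 and 80.6 CPM with NECA and 115 and 136 CPM with DMSO. Rps20 (chr4:3831334-3835665) had 62.8 and 50.3 CPM with NECA and 63.3 and 78.7 CPM with DMSO. Both lay lower without overlap, at log2 fold changes of -0.42 and -0.33 (edgeR adjusted p = 0.0905 and 0.196).

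Of the other members among the 8 with the highest deposited FPKM, Rpl8 (chr15:76904078-76906314) had 182 and 170 CPM with NECA and 185 and 215 CPM with DMSO. Rps14 had 175 and 181 CPM with NECA and 190 and 204 CPM with DMSO, and Rpl36 (chr17:56613416-56614243) had 46.8 and 47.0 CPM with NECA and 47.2 and 57.0 CPM with DMSO. All 3 lay lower with NECA without overlap, at log2 fold changes of -0.19, -0.15 and -0.15 (edgeR adjusted p = 0.246, 0.255 and 0.505). Rps25 (chr9:44407139-44410427), a small subunit protein needed by many viral internal ribosome entry sites, had 132 and 120 CPM with NECA and 108 and 137 CPM with DMSO, with overlapping groups. Rpl17, a protein at the polypeptide exit tunnel, had 29.9 and 22.6 CPM with NECA and 27.4 and 24.2 CPM with DMSO, also overlapping. Their log2 fold changes were 0.04 and 0.03 (edgeR adjusted p = 0.903 and 0.956).

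Members with and without a pyrimidine run are set side by side as a description, since the difference was not tested. The 35 tested members with a run of at least 6 at any annotated start had a median log2 fold change of -0.17 and ranged from -0.89 to 0.39. The 25 tested members whose starts had none had a median of -0.10 and ranged from -0.49 to 0.29. Rpl27a, with the longest run shown, had 83.7 and 82.5 CPM with NECA and 91.4 and 103 CPM with DMSO. Rpl15 had 64.4 and 59.6 CPM with NECA and 69.7 and 75.9 CPM with DMSO. Both lay lower without overlap, at -0.23 each. Rps9 and Rpl35a, which also carry such a run, were the 2 tested members with both NECA values above both DMSO values. In Rpl35a the run stood at the start shown, and the longest runs at its other annotated starts measured 3 bases.

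Paralogues, second copies of a subunit gene that are often used in particular tissues, were mostly scarce. Rpl7l1, a relative of Rpl7 that acts in ribosome assembly (chr17:46773907-46782672), had 55.1 and 58.6 CPM with NECA and 56.1 and 55.2 CPM with DMSO, against 205 and 183 CPM with NECA and 195 and 219 CPM with DMSO for Rpl7. Rpl22l1 had 11.1 and 10.0 CPM with NECA and 8.52 and 11.6 CPM with DMSO, and Rpl22, its main copy, had 17.3 and 23.0 CPM with NECA and 23.3 and 26.4 CPM with DMSO. Rps27l, a p53-responsive relative of Rps27, had 12.2 and 12.1 CPM with NECA and 13.3 and 17.4 CPM with DMSO. Rpl22 and Rps27l lay lower with NECA without overlap, at log2 fold changes of -0.31 and -0.34 (edgeR adjusted p = 0.343 and 0.369), and Rpl7l1, Rpl7 and Rpl22l1 overlapped.

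Rpl3l, the striated muscle form of Rpl3, had 18 and 26 counts with NECA and 18 and 23 with DMSO. Rps4l, an annotated pseudogene, had 12.5 and 10.98 CPM with NECA and 13.8 and 12.5 CPM with DMSO, and its main copy Rps4x had 147 and 136 CPM with NECA and 133 and 159 CPM with DMSO. Rpl39l, known from testis, had 2 and 5 counts with NECA and 3 and 0 with DMSO, and was not tested, while Rpl39 had 21.97 and 21.1 CPM with NECA and 20.3 and 30.2 CPM with DMSO. Rpl10l, which replaces the X-linked Rpl10 in spermatocytes, had 0 counts in all libraries, as did the pseudogene Rps12l1. A count of 0 allows up to 3 counts, or 0.165 and 0.194 CPM in the NECA libraries and 0.157 and 0.159 CPM in the DMSO libraries. Rpl10 had 157 and 148 CPM with NECA and 155 and 171 CPM with DMSO. The other members left untested were Rpl32l, with 3 and 0 counts with NECA and 1 and 0 with DMSO, and the core gene Rpl24. Of the pseudogenes tested, Rps3a2 had 18 and 13 counts with NECA and 24 and 23 with DMSO, and Rps3a3 had 15 and 8 counts with NECA and 3 and 17 with DMSO. The 8 tested paralogues and retrocopies had a median log2 fold change of -0.07, with 4 below 0 and 4 above, and the 76 tested core members had a median of -0.17, with 70 below 0.

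Levels between genes need a length, and the deposited FPKM divided counts by the union of all annotated exons. For 95.4% of 9003 genes with enough counts the length implied by FPKM was within 1% of that union. For the members the union was 2.28 times (median, at most 9.80 times) the length of the main protein-coding transcript. By deposited FPKM the highest members were Rps9 (mean 227 FPKM), Rplp0 (219), Rplp1 (199) and Rps3a1 (195). Per kb of main transcript the highest were Rps9 (762 CPM per kb), Rpl9 (318), Rps14 (314) and Rplp0 (267), and the median of the tested members was 125 CPM per kb. The 2 scales ranked the members with a Spearman rho of 0.824, which describes 1 set of counts divided by different lengths. Rps9 alone held 6.89% of the members' counts and the 10 highest members 32.3%.

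Some core members were nearly uncounted. In 5 of 19 pairs a member was lowest in the library where its near-identical gene was highest. This is near the share that 4 equally likely libraries would give. Ribosomal protein mRNAs are a common source of retrocopies, and 298 genes with names ending in -ps after a member's name held 8424 and 6999 counts with NECA and 8874 and 10087 with DMSO. The share of a member's 50-base stretches that also stood in transcripts of other genes had a median of 55.5% over the tested members and reached 98.6% for Rps27. How reads matching several genes were counted is not given in the sources used here, so values of such members are uncertain. Fold changes of the 28 tested members with no exon base covered by another gene and under 50% of stretches shared had a median of -0.15, and those of the 50 with at least 50% shared had a median of -0.16.

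The least counted core genes were Rpl24, Rps10 and Rpl13a. Rpl24 had 11 and 8 counts with NECA and 6 and 8 with DMSO, Rps10 had 29 and 30 counts with NECA and 38 and 20 with DMSO, and Rpl13a had 68 and 41 counts with NECA and 88 and 138 with DMSO. Each is covered over more than 50% of its exon bases by another annotated gene, Gm28037 over 71.5% of Rpl24, RPS10-NUDT3 over 91.6% of Rps10 and Gm45713 over 59.3% of Rpl13a. Those 3 genes had 0 counts in every library. Exons on either strand were taken as covering, and the strands of a member and its covering gene were not compared. Rpl35 and Rpl23a, covered over 68.3% by Wdr38 and over 55.4% by Tlcd1, had 762 and 594 counts and 768 and 609 counts with NECA, and 884 and 911 counts and 995 and 941 counts with DMSO. Rpl13a had the lowest fold change of all members, a log2 value of -0.89 (SE 0.31, edgeR adjusted p = 0.173) from 3.73 and 2.65 CPM with NECA and 4.60 and 7.33 CPM with DMSO, without overlap.

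**Figure D3:**
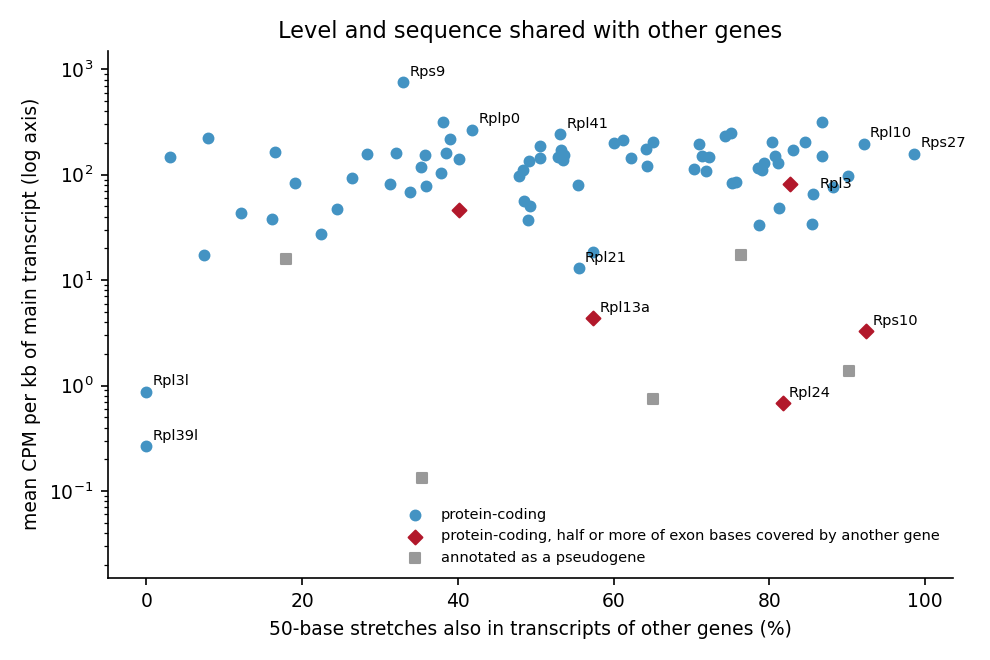
Mean CPM per kb of main transcript over the 4 libraries (y axis, log scale) against the percentage of a member's 50-base stretches that also stand in transcripts of other genes (x axis), with 1 point per member shown and members at 0 counts left out. Rpl24, Rps10 and Rpl13a, which another gene covers over more than 50% of their exon bases, sit below nearly all other protein-coding members, while Rpl3 and Rps27, with 85.6% and 98.6% of stretches shared, sit among the rest.

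For 19 protein-coding members a near-identical gene, sharing 50% or more of the stretches, had a mean of at least 100 counts. In 5 of these pairs the copy was highest in the library where the member was lowest. Those of Rps27, Rps10, Rpl38 and Rpl41, singled out after their values were seen, were among them. In 8 pairs both were highest in the same library. With 4 equally likely libraries, unrelated pairs would give nearly as many as these 5. Whether either count exceeds the share of unrelated pairs was not tested. Rps27 (chr3:90212522-90213651) had 45.5 and 69.0 CPM with NECA and 65.4 and 38.6 CPM with DMSO. Its intronless copy Rps27rt, sharing 98.6% of stretches, had 38.8 and 23.0 CPM with NECA and 16.6 and 70.7 CPM with DMSO. Their sum was 84.3 and 92.0 CPM with NECA and 82.0 and 109 CPM with DMSO. In CPM the 2 NECA values lay closer together in the sum than in Rps27 alone, and the 2 DMSO values did not. The log2 fold change of Rps27 was 0.13 (SE 0.21, edgeR adjusted p = 0.837) and that of the sum -0.12. Leaving out DMSO replicate 2 gave -0.20 for Rps27, and leaving out NECA replicate 1 gave 0.41, which passed the test (edgeR adjusted p = 0.00653).

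Rpl41, the smallest protein of the ribosome (chr10:128548114-128549305), had 116 and 58.3 CPM with NECA and 94.6 and 151 CPM with DMSO. Its copy Gm10076, annotated as a noncoding RNA, had 10.5 and 29.7 CPM with NECA and 12.4 and 4.30 CPM with DMSO. The groups of Rpl41 overlapped, and its log2 fold change of -0.49 (SE 0.25, edgeR adjusted p = 0.386) was -0.28 when both were summed. Rps10 stood at 1.59 and 1.94 CPM with NECA and 1.99 and 1.06 CPM with DMSO beside Rps10-ps2, which had 51.9 and 50.9 CPM with NECA and 46.7 and 59.2 CPM with DMSO. Rpl38 had 25.6 and 23.7 CPM with NECA and 24.5 and 35.5 CPM with DMSO beside Rpl38-ps2, which had 7.03 and 9.82 CPM with NECA and 9.61 and 6.80 CPM with DMSO. The 2 NECA values of Rps10 lay within the range of its DMSO values. For Rpl3, whose copy Rpl3-ps1 had 143 and 76 counts with NECA and 122 and 130 with DMSO, the fold change with all copies summed was -0.47 and was called (edgeR adjusted p = 0.0243).

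**Figure D4:**
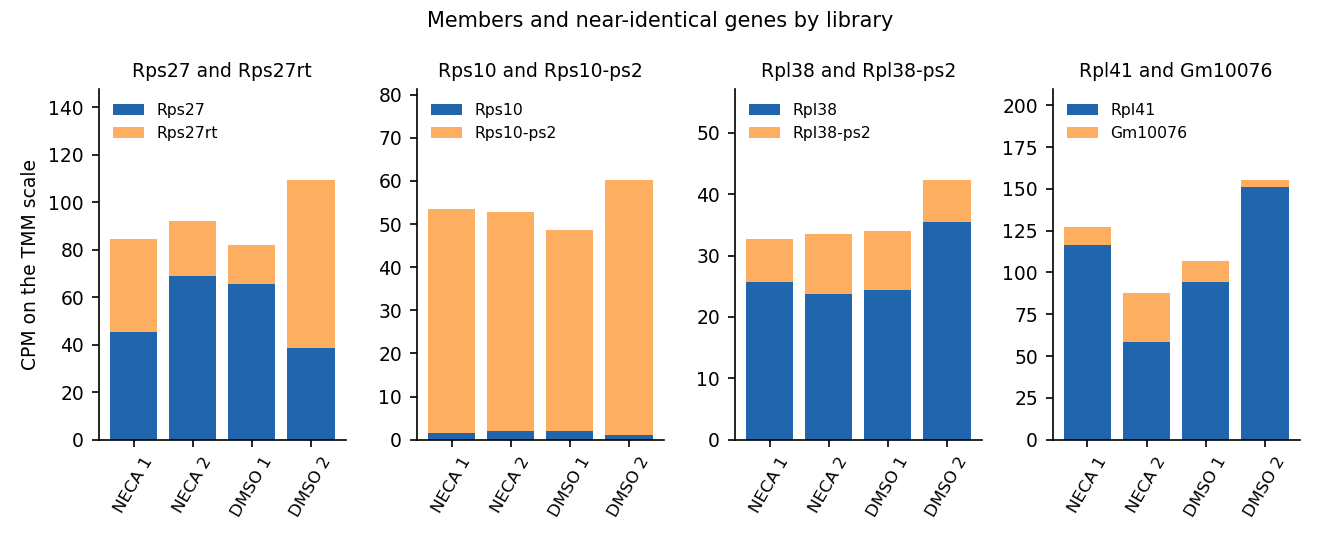
CPM (y axis) of 4 members in blue with the CPM of a near-identical gene stacked on top in orange, for NECA replicates 1 and 2 and then DMSO replicates 1 and 2. The pairs were chosen because the orange part is tallest in the library where the blue part is shortest. In DMSO replicate 2, for example, Rps27 stood at 38.6 CPM and Rps27rt at 70.7 CPM.

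The ribosomal proteins outside the name rule were placed like the members. Rack1, a scaffold on the small subunit, had 147 and 129 CPM with NECA and 155 and 167 CPM with DMSO, without overlap and with a log2 fold change of -0.21 (edgeR adjusted p = 0.178). Fau, which encodes the small subunit protein eS30 fused to a ubiquitin-like domain, had 418 and 392 CPM with NECA and 395 and 428 CPM with DMSO, at a log2 fold change of -0.02. Rps27a, the member fused to ubiquitin, had 71.6 and 66.1 CPM with NECA and 69.3 and 72.0 CPM with DMSO. Both genes overlapped between groups. Rpl36al had 5 and 4 counts with NECA and 13 and 28 with DMSO, and its relative Rpl36a had 15.5 and 13.0 CPM with NECA and 15.6 and 21.3 CPM with DMSO.

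Genes that work with ribosomal proteins included a few called ones. Of 20 elongation factors and other genes with TOP mRNAs, none was called higher and 1 lower. Of these genes 85% lay below 0, with a median log2 fold change of -0.15, against 88.1% of the tested members. Npm1, a nucleolar chaperone of ribosomal proteins, had 27.8 and 21.5 CPM with NECA and 35.7 and 37.7 CPM with DMSO, and it fell by 0.57 on the log2 scale (edgeR adjusted p = 0.0492). The call was lost without DMSO replicate 1, DMSO replicate 2 or NECA replicate 2 (edgeR adjusted p = 0.0710, 0.126 and 0.161) and with RLE factors (0.0557). Eef1a1, which brings aminoacyl-tRNA to the ribosome, had 819 and 720 CPM with NECA and 878 and 934 CPM with DMSO, without overlap (log2 fold change -0.24, edgeR adjusted p = 0.0879). Eef1g and Hnrnpa1 also had both NECA values below both DMSO values, at log2 fold changes of -0.37 and -0.28 (edgeR adjusted p = 0.0660 and 0.0880).

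Of 45 ribosome biogenesis factors, none was called higher, 2 (4.44%) were called lower and 37 (82.2%) lay below 0, with a median of -0.31. Over all tested genes 0.978% were called lower and 51.4% lay below 0. Most of these factors averaged under 20 CPM, and of all genes at 20 CPM or more 36.8% lay below 0. Among the factors at that level, Ncl and Riok1 lay below 0, at log2 fold changes of -0.39 and -0.06. Polr1a, Ubtf, Eif6 and Ebna1bp2 lay above 0, at 0.08, 0.01, 0.02 and 0.03. Ncl, nucleolin, which acts in ribosomal RNA processing, had 69.9 and 69.8 CPM with NECA and 89.8 and 93.1 CPM with DMSO and fell by 0.39 (log2, edgeR adjusted p = 0.0201). Myc, the transcription factor that drives ribosome biogenesis genes, had 1.04 and 0.58 CPM with NECA and 2.61 and 5.15 CPM with DMSO and fell by 2.23 (log2, edgeR adjusted p = 0.0409). The call of Ncl was lost without either DMSO library (edgeR adjusted p = 0.0502 without replicate 1 and 0.0647 without replicate 2), and that of Myc without DMSO replicate 2, at a log2 fold change of -1.67 (edgeR adjusted p = 0.215). Fbl, the methyltransferase of ribosomal RNA, had 4.45 and 4.01 CPM with NECA and 7.68 and 9.83 CPM with DMSO (log2 fold change -1.05, edgeR adjusted p = 0.0521). None of 19 regulators of TOP mRNAs and none of 26 initiation factors was called, with medians of -0.01 and -0.08. Of these regulators 52.6% lay below 0, and of the initiation factors 84.6%. Of 76 tested mitochondrial ribosomal proteins, 77.6% lay below 0, with a median of -0.10, and 1, Mrpl52, was called lower. Mrpl52 had 0.77 and 0.26 CPM with NECA and 2.93 and 3.13 CPM with DMSO. The call of Mrpl52 was lost without either DMSO library (edgeR adjusted p = 0.0765 and 0.0889).

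**Figure D5:**
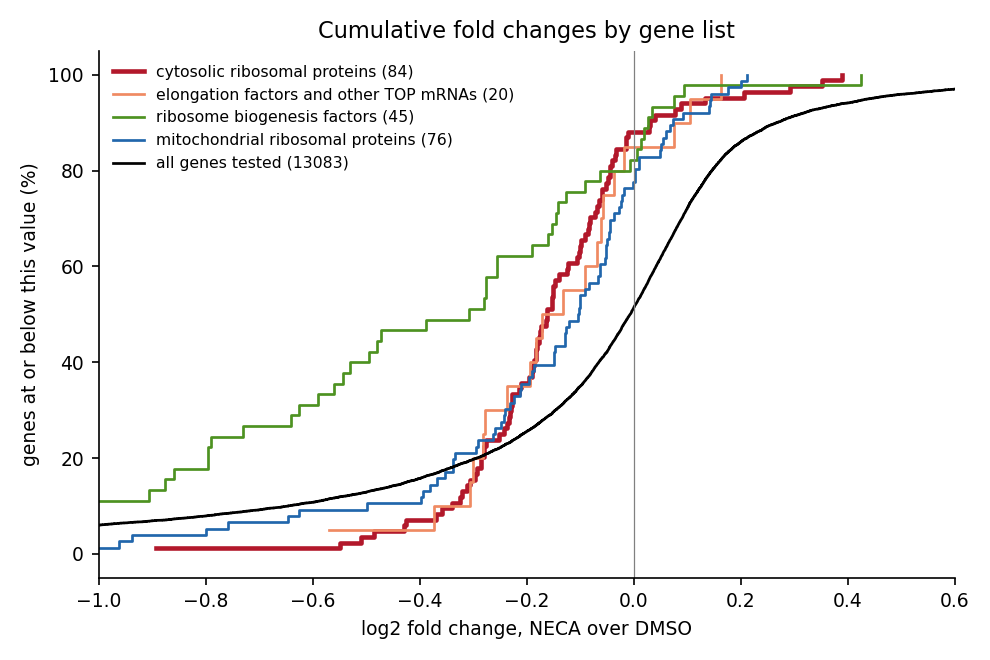
Percentage of genes at or below each log2 fold change of NECA over DMSO (x axis, cut at -1 and 0.6) for the members, 3 related gene lists and all 13083 tested genes, with the number of genes in brackets. The curve of the members in thick red crosses 50% at -0.16 and that of ribosome biogenesis factors in green at -0.31. That of all genes in black crosses it at -0.01, and the curves are not matched for level.

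The genes most like the members across libraries were found as those outside the name rule whose centred log2 CPM lay closest to the members' mean, by summed squared distance over the 4 libraries, among 5583 genes averaging 20 CPM or more. They were Pfdn6, a prefoldin subunit, Mdn1, an ATPase of large subunit assembly, R3hcc1l, Dhx30, an RNA helicase, and Tmed9, a cargo receptor of the secretory pathway. Pfdn6 had 20.6 and 18.9 CPM with NECA and 20.4 and 23.1 CPM with DMSO. With 4 libraries many genes share any pattern, and none of the 5 was called (edgeR adjusted p from 0.564 to 0.686).

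Markers of other cell types moved with the same groups. Of 20 macrophage and monocyte markers, such as Vcam1 and C1qc, 14 were called lower, and their sum was 865 and 802 CPM with NECA and 1325 and 1234 CPM with DMSO. Of 14 erythroid markers none was called, and their sum was 388 and 62.7 CPM with NECA and 1254 and 549 CPM with DMSO. Of 12 tested B cell markers 1, Blnk, was called lower, and the sum over 14 was 191 and 35.2 CPM with NECA and 337 and 361 CPM with DMSO. Of 9 tested T and NK cell markers none was called, with sums of 21.6 and 21.1 CPM with NECA and 34.0 and 37.3 CPM with DMSO. Every tested marker of these 4 lists lay below 0, with median log2 fold changes of -1.54, -1.63, -1.71 and -1.51 in the order given. At an unadjusted p below 0.05 (edgeR), 18 of 20, 12 of 14, 10 of 12 and 5 of 9 were lower, against 8.88% of all tested genes.
In these 4 lists both NECA sums lay below both DMSO sums, and no marker was at 0 in all libraries. On the list of dendritic cell markers 1 of 6 tested (Btla) was called lower, and on that of basophils, mast cells and eosinophils 1 of 9 (Ccr3). On the list of stem and progenitor cells 1 of 8 (Irf8) was called lower. Whether these genes, Irf8 among them, are specific to the cells of their list was not tested. The calls of Blnk, Btla and Irf8 were lost without DMSO replicate 2 (edgeR adjusted p = 0.143, 0.0615 and 0.0697), and those of Btla and Irf8 also without DMSO replicate 1 (0.0992 and 0.0960). Their sums were 37.4 and 21.3 CPM, 65.7 and 55.0 CPM, and 210 and 206 CPM with NECA, and 57.1 and 52.95 CPM, 89.7 and 86.9 CPM, and 228 and 236 CPM with DMSO. Of 12 proliferation genes none was called, with sums of 1393 and 1578 CPM with NECA and 1434 and 1450 CPM with DMSO. Of the 14 neutrophil markers 2, Mmp9 and Mmp8, were called higher, and the median was 0.17. With library size alone neither passed (edgeR adjusted p = 0.0556 and 0.0837), and without DMSO replicate 1 Mmp8 did not (0.102). NECA replicate 2, lowest for most ribosomal protein genes, was also the lowest library for the sums of the macrophage, erythroid, B cell, T and NK cell, dendritic cell, basophil and progenitor lists. DMSO replicate 2, highest for most ribosomal protein genes, was the highest library for the B cell, T and NK cell and progenitor sums, and DMSO replicate 1 for the macrophage, erythroid, dendritic cell and basophil sums. The part of these cells in the values of the ribosomal protein genes was not tested.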

How the data were processed

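The authors deposited for each library a table of whole-number read counts and FPKM per gene, as the file headers name them. The submitters' processing notes name HISAT, StringTie, edgeR, mm10 and GRCm38. How reads were counted, with which strand setting and with which rule for multiple matches, is not given in the sources used here. Per the labels' protocols, 300000 cells were lysed per condition, and cDNA was made with SMARTer chemistry and amplified by PCR. The deposited counts were analysed in R 4.3.3 with edgeR 4.0.16: filterByExpr (minimum count 10), TMM, quasi-likelihood test of NECA against DMSO, Benjamini-Hochberg adjustment over all 13083 genes and a threshold of 0.05. Each SE was the size of the log2 fold change over the root of its F value. The script was tested on simulated data with 200 changed genes. DESeq2 1.42.0, other scalings, filters, left-out libraries, a replicate block and summed copies were alternatives. Positions and transcripts came from GENCODE M21 (54495 identifiers matched), and shared sequence was counted in stretches of 50 bases of the main transcript. FPKM, as deposited by the authors, was used for levels only. Members named in the text were those called, the 8 highest by FPKM, the 6 highest and 6 lowest fold changes at 20 CPM or more, the 6 largest without overlap, and paralogues with their main copies; role groups and pairs with copies were added. The members and gene lists were chosen with earlier results of these data known. Replicate libraries differed by more than sampling noise (chi-square per degree of freedom 5.01 with NECA and 6.36 with DMSO). At this depth the SE of a member's log2 fold change had a median of 0.0878. Values of some genes are not reported here.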

Additional observations from a re-analysis of the deposited data

How the results depend on the processing

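The median log2 fold change of the members stayed below 0 under every alternative run, from -0.23 to -0.10 over the fits that left out 1 library (-0.228 without DMSO replicate 1, -0.0979 without DMSO replicate 2). With library size alone, which moved the median of all genes to -0.08, it was -0.23. Called members were 0 higher and 1 lower in the main analysis. Members called lower numbered 4 with DESeq2, 9 with library size alone, 17 with no filter beyond 1 count in any library, and 0 to 18 with 1 library left out (0 without DMSO replicate 2, 18 without NECA replicate 1). Called higher were 1 with no filter and 0 to 2 with 1 library left out. In those fits all tested genes were called lower in 1.2% with DESeq2, 1.66% with library size alone, 2.64% with no filter and 4.01% without NECA replicate 1. Genes of all kinds called higher numbered 143 with DESeq2, 21 with library size alone and 285 with no filter, against 46, and 590 were called lower with no filter, against 128. With RLE factors, TMM factors computed without the members, or counts summed with copies named -ps, the members' counts remained at 0 higher and 1 lower, and likewise with all near-identical copies summed, an alternative chosen after seeing the data. Leaving out a library leaves 1 sample in its group, which is then assumed to vary like the other group's. The causes of these shifts were not tested.

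With the replicate number as a block, 5 members were called lower and 1 higher, and all genes called numbered 123 higher and 298 lower. The deviations of same-numbered libraries correlated across genes at r = 0.02 over all tested genes and -0.40 over the members. With 2 libraries per group these values cannot show whether equal numbers mark pairs. The labels name no pairs, so the numbers are not taken as pairs.

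The difference in the members' share, NECA minus DMSO, was -0.119 percentage points of counts and -0.181 points of the summed FPKM. It ranged from -0.168 to -0.071 with 1 library left out. The 5 untested members and, among tested ones, Rps3a2, Rps3a3, Rpl3l and Rps10 had at most 38 counts in any library. This limits what can be said of them, and the cause of the low counts was not tested.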
